A study of Mus musculus with 200 samples.

Results

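Reactive astrocyte genes are the transcripts that astrocytes, the supporting glia of the brain, raise when the tissue around them is injured or inflamed. A set of 10 was followed in mice after closed head injury (CHI), a blow to the intact skull, and the rows were taken by exact gene name: Gfap, Vim, Serpina3n, Timp1, Lcn2, Cp, Osmr, Cd44, S1pr3 and Steap4. All 10 were among the 56941 genes listed. RNA was sequenced from a hemisphere of each of 200 mice that had received CHI or sham surgery (anaesthesia and a scalp incision) and were killed 9, 24 or 72 h later. The CHI and sham groups held 15 and 6 C57BL/6J mice at 9 h, and 14 and 6 at both 24 and 72 h. Mice labelled IL-1R1 gKO numbered 13 CHI and 6 sham at 9 h, and 12 and 6 at both later times. Mice labelled IL-1R1 eRestore numbered 12 and 6 at 9 h, 9 and 5 at 24 h, and 12 and 6 at 72 h. Mice labelled IL-1R1 nRestore numbered 6 and 4 at 9 h, 8 and 5 at 24 h, and 6 and 5 at 72 h, and those at 72 h were all labelled male. IL-1R1 is the receptor of interleukin-1, and neither the allele nor the promoter behind gKO, eRestore and nRestore is given in the sources used here. Of the 200 mice 102 were female and 98 male, and their ages ran from 3.3 to 7.67 months. At 9, 24 and 72 h the ages in months were 4.4 to 4.8, 4.8 to 5.93 and 5.17 to 6.8 in C57BL/6J mice and 3.3 to 5, 4.5 to 7.4 and 4.6 to 7.2 in gKO mice. They were 4.5 to 5.17, 4.5 to 7.4 and 4.9 to 6.17 in eRestore mice and 3.3 to 4, 4.3 to 7.2 and 4.5 to 7.67 in nRestore mice. The comparison asked of each gene was whether it was higher or lower after CHI than after sham surgery in each strain and at each time, and whether that difference was larger early or late.

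The 10 genes do different things in a reactive astrocyte. Gfap and Vim encode the intermediate filaments GFAP and vimentin, which thicken the cell's cytoskeleton. Serpina3n, Timp1, Lcn2 and Cp encode secreted proteins: a serine protease inhibitor, an inhibitor of matrix metalloproteases, the iron-siderophore carrier lipocalin-2, and the copper-carrying ferroxidase ceruloplasmin. Osmr, Cd44, S1pr3 and Steap4 encode proteins of the cell membrane: the oncostatin M receptor, which signals with gp130 through JAK kinases and STAT3, the hyaluronan receptor CD44, a receptor for sphingosine-1-phosphate, and a metalloreductase. None of them is made by astrocytes alone. Microglia, endothelium, fibroblasts, neutrophils or the choroid plexus can express several, and in whole-tissue RNA more cells of a type cannot be told apart from more RNA per cell.

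The genes lie on separate chromosomes or far apart. On the GRCm39 mouse genome, with the GENCODE vM39 annotation, Gfap (ENSMUSG00000020932) is at chr11:102778159-102791738 on the minus strand and Vim (ENSMUSG00000026728) at chr2:13578738-13587639 on the plus strand. Serpina3n (ENSMUSG00000021091) is at chr12:104372810-104380597 on the plus strand, in a cluster of similar serpin genes whose reads the authors' transcript estimation may have divided. Timp1 (ENSMUSG00000001131) is at chrX:20736316-20740976 on the plus strand, inside the span of the synaptic gene Syn1 on the other strand. Lcn2 (ENSMUSG00000026822) is at chr2:32274645-32278264 on the minus strand, and Cp (ENSMUSG00000003617) at chr3:20011090-20063930 on the plus strand, overlapped by Hps3 on the other strand. Osmr (ENSMUSG00000022146) is at chr15:6843053-6904450 and Cd44 (ENSMUSG00000005087) at chr2:102641486-102732010, both on the minus strand. S1pr3 (ENSMUSG00000067586) is at chr13:51561702-51576833 and Steap4 (ENSMUSG00000012428) at chr5:8010260-8032214, both on the plus strand. Vim, Steap4, Cd44, Osmr and S1pr3 are each overlapped by a predicted gene on the other strand. These overlaps are of gene spans, and whether exons of a pair overlap was not examined. The strandedness of the counting is not given in the sources used here. Reads from bases that transcripts of both genes share may therefore not be told apart.

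Promoter sequences are shown for 5 genes, to set the letters beside the time courses that follow: in the fit over the 4 strains, Gfap and Serpina3n were called higher in CHI mice at all 3 times, Osmr and Steap4 at 9 h and at no later time, and Cp at none. Each is the 250 bases before the start of the gene's Ensembl canonical transcript in GRCm39, read 5′ to 3′, and capitals mark a match to a searched motif. The canonical start of Gfap lies inside the gene's span, downstream of the starts of other annotated Gfap transcripts, so its window is not upstream of the whole gene.
Gfap, chr11:102788186-102788435, minus strand: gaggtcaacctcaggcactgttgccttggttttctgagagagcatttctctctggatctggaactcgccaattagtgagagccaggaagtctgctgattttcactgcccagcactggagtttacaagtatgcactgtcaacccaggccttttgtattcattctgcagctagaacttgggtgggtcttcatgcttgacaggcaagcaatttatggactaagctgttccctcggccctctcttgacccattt
Serpina3n, chr12:104372560-104372809, plus strand: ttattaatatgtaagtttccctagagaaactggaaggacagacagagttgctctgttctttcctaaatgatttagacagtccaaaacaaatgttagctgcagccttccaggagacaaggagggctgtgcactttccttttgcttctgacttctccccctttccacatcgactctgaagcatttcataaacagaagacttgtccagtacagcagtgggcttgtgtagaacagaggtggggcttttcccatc
Osmr, chr15:6904451-6904700, minus strand: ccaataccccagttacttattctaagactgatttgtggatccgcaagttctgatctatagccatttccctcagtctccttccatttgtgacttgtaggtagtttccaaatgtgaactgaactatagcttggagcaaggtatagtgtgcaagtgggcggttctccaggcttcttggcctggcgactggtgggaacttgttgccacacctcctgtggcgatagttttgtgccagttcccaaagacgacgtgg
Steap4, chr5:8010010-8010259, plus strand: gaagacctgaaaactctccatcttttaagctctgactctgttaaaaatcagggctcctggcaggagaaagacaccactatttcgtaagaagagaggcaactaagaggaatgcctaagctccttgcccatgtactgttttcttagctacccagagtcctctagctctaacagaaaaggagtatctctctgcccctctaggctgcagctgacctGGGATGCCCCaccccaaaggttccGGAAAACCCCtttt
Cp, chr3:20010840-20011089, plus strand: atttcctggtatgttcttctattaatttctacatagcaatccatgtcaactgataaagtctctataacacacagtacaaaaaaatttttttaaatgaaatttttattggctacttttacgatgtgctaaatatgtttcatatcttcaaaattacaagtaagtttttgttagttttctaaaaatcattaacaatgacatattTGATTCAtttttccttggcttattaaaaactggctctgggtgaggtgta
The STAT motif searched was TTCNNNGAA. The AP-1 motif was TGANTCA, the C/EBP motif was TTGCNNAA, and NF-kB was searched by its consensus, each on both strands. The capitals in Steap4 are NF-kB matches, GGGATGCCCC and GGAAAACCCC, whose 5′ bases lie 38 and 14 bases before the start. The capitals in Cp are an AP-1 match, TGATTCA, 49 bases before the start. The Lcn2 window, which also lies inside the gene's span and for the most part in annotated Lcn2 exons, held an NF-kB match, GGAATGTCCC, 202 bases before the canonical start and a C/EBP match, TTGCTCAA, nearer to it. Of 21770 protein-coding promoters of the same length, 7.62% held an NF-kB match, 9.34% a C/EBP match, 6.17% an AP-1 match and 7.7% a STAT match. Of the 10 genes, 2 held an NF-kB match, 1 a C/EBP match, 1 an AP-1 match and 0 a STAT match. A match describes the letters of the window and does not show that a factor binds there.

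Libraries held 14857985 to 57355676 estimated counts, with a median of 20258936. The closest pair of libraries correlated at 0.990 and no pair was identical. The mice came from 8 experiments, as the labels name them, and none of these held both 9 h mice and later ones. A level or a CHI effect that differs between 9 h and later times cannot be told apart from a difference between experiments. CHI and sham mice are compared within a time point throughout. At 24 h part of the gKO, eRestore and nRestore CHI mice came from an experiment that held no sham mouse of those strains. These CHI groups reached 7.4, 7.4 and 7.2 months of age, and their sham groups 5.3 months. In those comparisons CHI cannot be fully told apart from experiment and age. The astrocyte label was checked with 11 markers of resting astrocytes, such as Aqp4, Slc1a2 and Aldh1l1. All 11 were above 0 in every mouse, and their summed level ran from 3346 to 4732 TPM (a measure of transcript abundance that allows for transcript length and library size). Il1r1 was not lower in the mice labelled IL-1R1 gKO (2.39 to 7.86 TPM, median 3.94) than in C57BL/6J mice (0.998 to 4.77, median 2.00). Since the sources used here do not say which part of the gene is altered, the total level checks nothing about the label. In 2 mice labelled male, a sham eRestore mouse at 24 h and a CHI nRestore mouse at 72 h, Xist was high (94.4 and 75.6 TPM) and the Y-linked Ddx3y was 0. A CHI gKO mouse at 9 h held a summed S100a8 and S100a9 level of 63.4 TPM, and the next highest mouse 6.93. Values of several members without these 3 mice are given with the fit over the 4 strains.

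In sham mice the 10 genes spanned 3 orders of level. Over all 67 sham mice the median TPM was 119.9 for Gfap (57.1 to 217), 26.9 for Vim (18.1 to 54.1), 9.17 for Serpina3n (3.80 to 18.3), 8.87 for Cp (2.72 to 21.5) and 3.89 for S1pr3 (1.69 to 5.30). It was 1.59 for Cd44 (0.569 to 3.335), 1.58 for Osmr (0.831 to 3.815), 0.359 for Timp1 (0 to 4.30), 0.209 for Steap4 (0 to 1.305) and 0.124 for Lcn2 (0 to 10.0). Gfap stood above all other members in every sham group, and the ranges of neighbours from Serpina3n downward overlapped. Timp1, Lcn2 and Steap4 were at 0 in some sham mice, and in part of the comparisons they reached the count filter through CHI mice, so they are described by their values and are not counted as support for a direction of the list.

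At 9 h after CHI most of these genes were higher in C57BL/6J mice. By edgeR's quasi-likelihood test with Benjamini–Hochberg adjustment over all genes, 8 of the 10 were called higher and 0 lower: Gfap, Vim, Serpina3n, Timp1, Lcn2, Cp, Steap4 and Osmr. Of all 16967 genes tested 7.05% were called higher. Without Timp1, Lcn2 and Steap4, 5 of 7 were called higher, with a median log2 fold change of 0.73. At 24 h 3 of 10 were called higher, Vim, Serpina3n and Timp1, or 2 of 7 without Timp1, Lcn2 and Steap4, against 0.229% of all genes. At 72 h 0 of 7 tested were called, as for all genes (0%), where 869 of 16875 genes had an unadjusted p under 0.05. Over the 7 members without Timp1, Lcn2 and Steap4, the median log2 fold change was 0.73, 0.27 and 0.51 at 9, 24 and 72 h. With those 3 it was 1.20 at 9 h and 0.25 at 24 h (10 tested), and at 72 h they were not tested. Over all genes tested the median was -0.01, 0.00 and 0.00 at the same times.

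**Figure D1:**
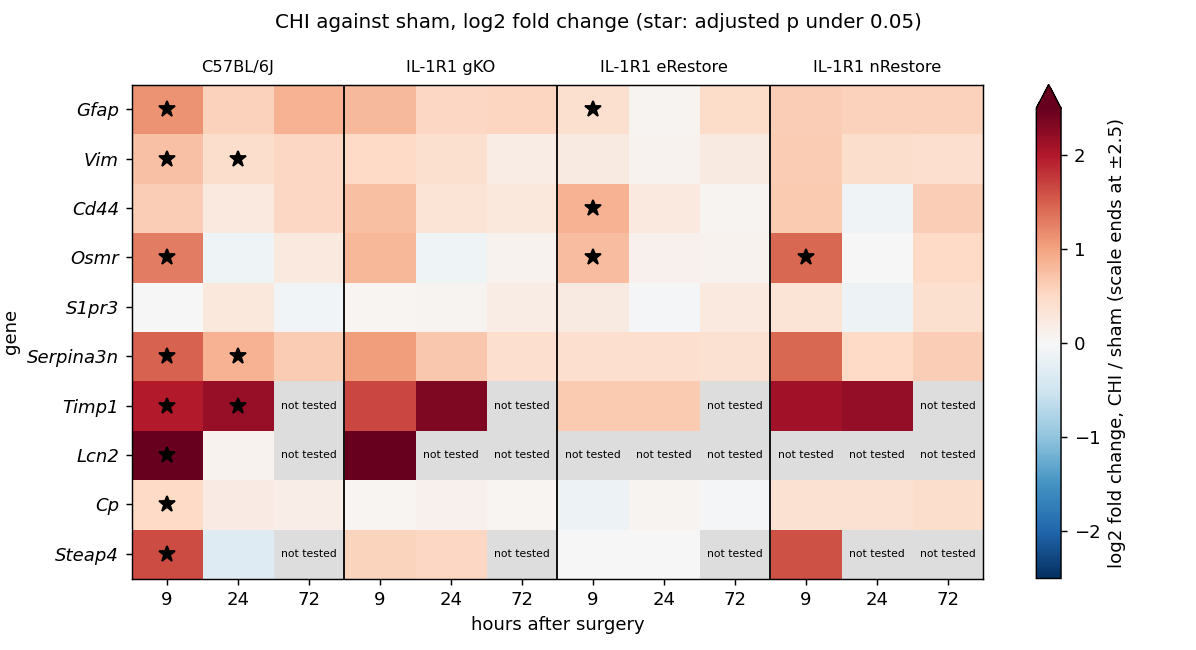
Log2 fold change of CHI against sham for the 10 genes (rows) in each strain and at each time after surgery in h (columns), by colour, with calls at adjusted p under 0.05 marked and members below the count filter left blank. Most calls sit in the C57BL/6J column at 9 h (8 of 10), and Gfap is above 0 in all 12 columns.

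The filament genes were higher in CHI mice at 9 h, with values above 0 at both later times. Gfap in C57BL/6J sham mice ran from 60.5 to 87.2 TPM (median 72.6) at 9 h, and in CHI mice from 81.9 to 303.5 (median 162.8). At 24 h the sham range was 97.8 to 130.1 (median 116) and the CHI range 142.8 to 308 (median 178.5). At 72 h sham mice held 93.6 to 144.5 TPM (median 122.1) and CHI mice 149.6 to 430 (median 223). At 9 h 14 of 15 CHI mice were above every sham mouse, and at 24 and 72 h every CHI mouse was, so that the groups did not overlap at the later times. The log2 fold change at 9 h was 1.12 ± 0.16 (SE, CHI n = 15, sham n = 6, adjusted p = 9.14e-05), and it was 0.58 ± 0.15 at 24 h (n = 14 and 6, adjusted p = 0.166) and 0.87 ± 0.18 at 72 h (n = 14 and 6, adjusted p = 0.158). The later differences thus missed the threshold over all genes in edgeR although no CHI mouse fell among the sham mice. Gfap passed it under 3 alternatives at 24 h (log2 fold change 0.57 to 0.58, adjusted p = 2e-23 to 0.0143). At 72 h it passed under 4 (0.87 to 1.05, adjusted p = 0.000268 to 0.0325), with DESeq2 among the alternatives at both times. The log2 fold change at 24 h was almost the same in each setting. An adjusted p as low as 2e-23 thus reflects the setting and is not stronger evidence.

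Gfap also separated CHI from sham mice at 72 h in each of the other strains. In gKO mice 12 CHI mice ran from 164.1 to 278.5 TPM and 6 sham mice from 105.3 to 151.1. In eRestore mice 12 CHI mice ran from 139.5 to 251 and 6 sham mice from 86.8 to 139.1. In nRestore mice 6 CHI mice ran from 159.3 to 260 and the 5 sham mice held 103.8, 119.9, 124.2, 128.2 and 152.6. In all 4 strains, then, every CHI mouse at 72 h lay above every sham mouse of its strain. The gap was small in eRestore, nRestore and C57BL/6J mice, in the last 149.6 TPM against 144.5. Such separation was rare among all genes: it was met by 0.0356% of genes in C57BL/6J, 0.0239% in gKO, 0.0968% in eRestore and 0.242% in nRestore mice at 72 h. The log2 fold changes at 72 h were 0.54 ± 0.13 in gKO, 0.47 ± 0.13 in eRestore and 0.58 ± 0.12 in nRestore mice (SE), with adjusted p of 1, 0.677 and 0.574, in comparisons where almost no gene was called.

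In C57BL/6J mice Vim differed in the same direction as Gfap, by less at each time. The sham mice held 18.1 to 25.8 TPM of Vim at 9 h (median 23.3) and CHI mice 19.7 to 56.1 (median 40.5), with 14 of 15 CHI mice above every sham mouse. The log2 fold change was 0.73 ± 0.11 (SE, adjusted p = 5.02e-05) at 9 h, 0.44 ± 0.09 (adjusted p = 0.0262) at 24 h and 0.53 ± 0.09 (adjusted p = 0.0677) at 72 h. At 24 h the groups overlapped, with CHI mice from 25.2 to 49.1 TPM and sham mice from 20.1 to 36.3. In nRestore mice at 72 h the groups did not overlap: 6 CHI mice ran from 32.0 to 50.7 TPM and 5 sham mice from 20.65 to 29.8. The C57BL/6J call of Vim at 24 h rests on single sham mice. It was kept under 9 of 15 alternatives, and without sham mouse A005 or A054 none of the 3 members called at 24 h stayed called.

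**Figure D2:**
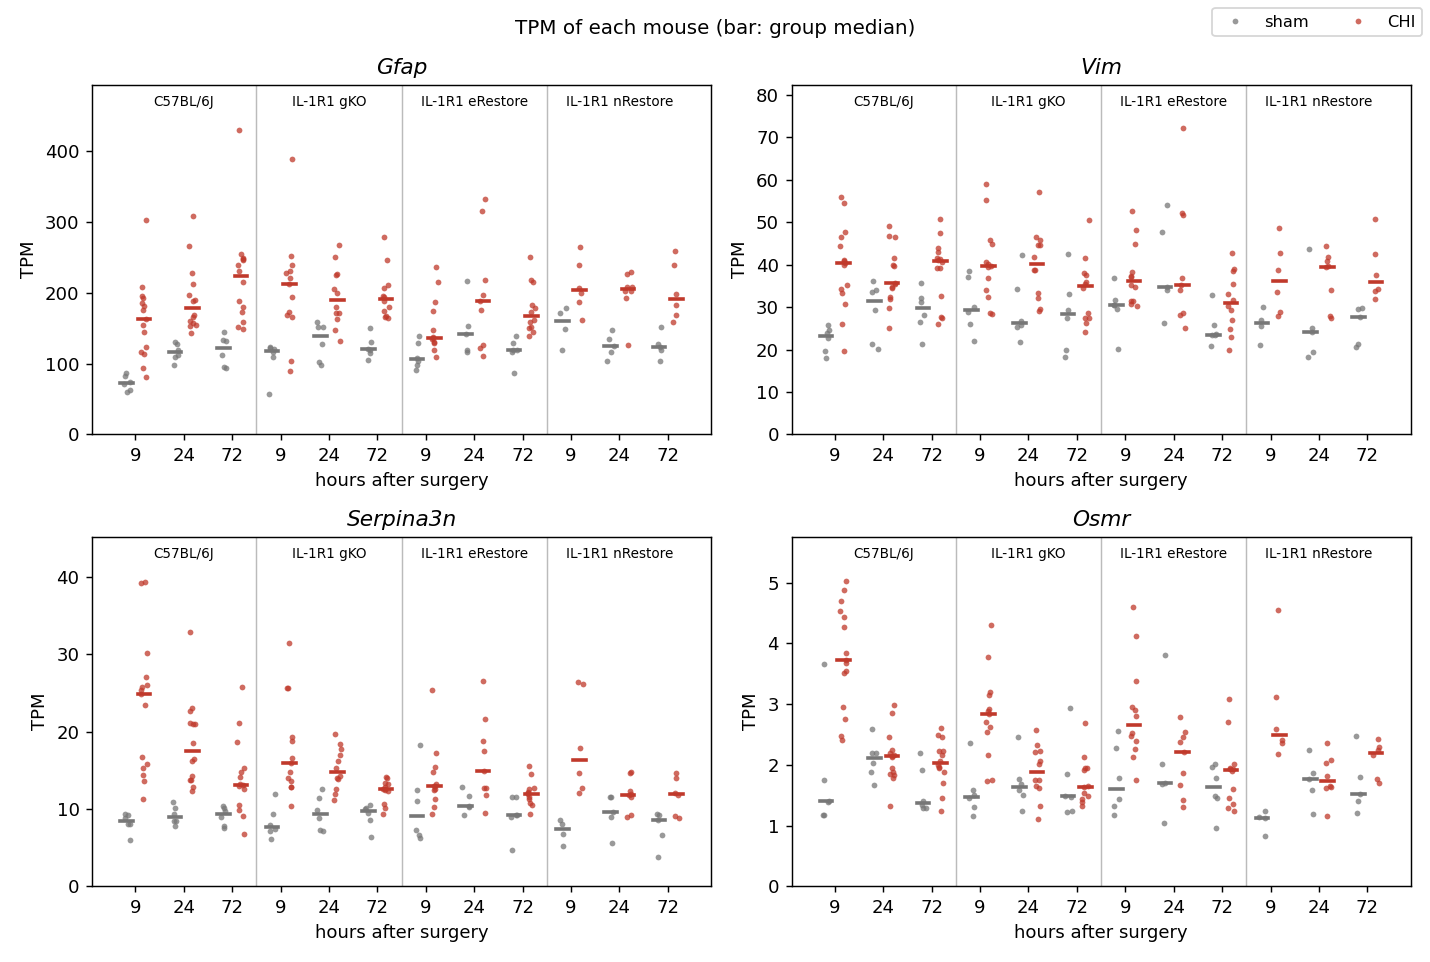
TPM of Gfap, Vim, Serpina3n and Osmr in each mouse (points) by strain, surgery and time in h, with a bar at each group's median. In C57BL/6J mice the CHI medians of Gfap and Serpina3n lie above the sham medians at all 3 times, while the Osmr groups overlap at 24 h.

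Serpina3n was called higher in C57BL/6J mice at 9 and 24 h. At 9 h C57BL/6J sham mice held 5.97 to 9.33 TPM (median 8.45) and CHI mice 11.2 to 39.4 (median 24.8). At 24 h sham mice held 7.85 to 10.9 (median 8.91) and CHI mice 12.3 to 32.9 (median 17.5). At 72 h sham mice held 7.499 to 10.35 (median 9.37) and CHI mice 6.77 to 25.8 (median 13.2). The groups did not overlap at 9 and 24 h and overlapped at 72 h. Complete separation was seen for 0.519% of genes at 9 h, Lcn2 among them, and for 0.0543% at 24 h, Gfap among them. CHI differed from sham by a log2 fold change of 1.47 ± 0.25 (SE, adjusted p = 0.000526) at 9 h, 0.86 ± 0.18 (adjusted p = 0.0401) at 24 h and 0.63 ± 0.21 (adjusted p = 0.796) at 72 h. The call at 24 h was lost when any of the sham mice A005, A054, A055, A031 or A123 was left out, 5 of the 6. At 9 h the log2 fold change was 1.04 ± 0.22 (adjusted p = 0.052) in gKO mice, 1.43 ± 0.35 (adjusted p = 0.144) in nRestore mice and 0.42 ± 0.26 (adjusted p = 0.334) in eRestore mice. In nRestore mice at 9 h the 4 sham mice held 5.21, 6.70, 8.09 and 8.51 TPM and the 6 CHI mice 12.1 to 26.4. Timp1 and Osmr separated the same groups, as did 1.44% of all genes there.

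Timp1 was low in C57BL/6J sham mice and had a higher median in CHI mice at each time. The sham mice held 0.257 to 0.831 TPM at 9 h (median 0.406) and CHI mice 0.415 to 3.19 (median 1.52). At 24 h sham mice held 0 to 1.28 TPM (median 0.256) and CHI mice 0.559 to 6.77 (median 2.59), with 13 of 14 CHI mice above every sham mouse. At 72 h sham mice held 0.117 to 0.389 (median 0.345) and CHI mice 0.355 to 1.95 (median 1.15), and again 13 of 14 were above every sham mouse. In log2 fold change Timp1 was 1.98 ± 0.47 (SE, adjusted p = 0.00528) at 9 h and 2.17 ± 0.44 (adjusted p = 0.0215) at 24 h, a 4.51-fold difference, and the call at 24 h was lost without sham mouse A005, A054 or A123. At 72 h Timp1 was below the count filter, and with a filter of 1 count in total its log2 fold change was 1.89 ± 0.45 (adjusted p = 0.216). In gKO mice at 24 h the value was 2.33 ± 0.55 (adjusted p = 0.122), with sham mice at 0 to 1.06 TPM and CHI mice at 0.839 to 7.86. In eRestore mice at 24 h the sham mice held 0, 0, 0.967, 1.06 and 4.30 TPM, the last being the highest of all 67 sham mice and one of the 2 mice whose sex markers went against the label. Without that mouse the log2 fold change there was 1.66 ± 0.71 (adjusted p = 0.459) instead of 0.65 ± 0.69 (adjusted p = 0.828). Other groups showed less: in eRestore mice at 9 h 1 of 12 CHI mice was above every sham mouse, and in nRestore mice at 72 h the CHI median (0.814 TPM) lay below the sham median (0.930 TPM).

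Lcn2 had the largest log2 fold change of the 10 genes in C57BL/6J mice at 9 h and was not called later. At 9 h sham mice held 0.194 to 0.935 TPM (median 0.352) and CHI mice 2.72 to 25.7 (median 5.97), so that the lowest CHI mouse stood above the highest sham mouse. The log2 fold change was 3.79 ± 0.45 (SE, adjusted p = 5.25e-06), a 13.85-fold difference. At 24 h sham mice held 0.771 to 3.92 TPM (median 1.81) and CHI mice 0.157 to 4.19 (median 1.63), and the log2 fold change was 0.09 ± 0.45 (adjusted p = 0.98). At 72 h sham mice held 0 to 1.86 (median 0.548) and CHI mice 0.199 to 3.36 (median 0.624). CHI and sham mice overlapped at 24 and 72 h, and the sham median at 24 h was above that at 9 h.

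In the other strains Lcn2 stayed near or below 1 TPM in most mice at 9 h, CHI mice included. In gKO mice at 9 h sham mice held 0 to 0.251 TPM (median 0.113) and CHI mice 0 to 6.95 (median 0.673), with a log2 fold change of 3.08 ± 0.88 (SE, adjusted p = 0.149). In eRestore mice sham mice held 0 to 1.48 TPM (median 0) and CHI mice 0.0961 to 2.63 (median 0.597). In nRestore mice the 4 sham mice held 0, 0, 0.123 and 0.153 TPM and the 6 CHI mice 0.127 to 3.07 (median 0.692). In the last 2 strains Lcn2 was below the count filter. With a filter of 1 count in total it was called higher in nRestore mice (adjusted p = 8.16e-06) and not in eRestore mice (adjusted p = 0.103), and its fitted fold change in nRestore mice, where some sham mice were at 0, depends on the tool's prior count.

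Neutrophils also carry much Lcn2, so their markers are given beside it. The summed level of 6 neutrophil markers in C57BL/6J mice at 9 h had a median of 0.737 TPM in CHI mice (0 to 3.12) and of 0.226 in sham mice (0 to 1.78). Of the 6 markers 0 reached the count filter in any single strain, and Mmp8, Camp, Ltf and Ngp were each at 0 in 122 or more of the 200 mice. Over the 4 strains 1 of the 6 reached the filter and was called higher at 9 h (log2 fold change 1.475), and the summed level had a median of 0.762 TPM in CHI mice and 0.283 in sham mice. The gKO mouse with the high S100a8 and S100a9 levels held 3.57 TPM of Lcn2. Without it Lcn2 fell below the count filter in gKO mice at 9 h, and the Lcn2 value over the 4 strains at 9 h was 3.2 ± 0.43 (SE) instead of 3.28 ± 0.44.

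Cp differed least among the members called at 9 h. C57BL/6J sham mice held 5.22 to 9.70 TPM (median 6.63) and CHI mice 5.86 to 15.1 (median 9.57), with 7 of 15 CHI mice above every sham mouse. For Cp the log2 fold change was 0.49 ± 0.11 (SE, adjusted p = 0.0026) at 9 h, 0.21 ± 0.09 (adjusted p = 0.44) at 24 h and 0.17 ± 0.12 (adjusted p = 0.908) at 72 h. In gKO, eRestore and nRestore mice at 9 h it was 0.04 ± 0.16, -0.12 ± 0.19 and 0.38 ± 0.13 (adjusted p = 0.964, 0.721 and 0.216). The choroid plexus also makes ceruloplasmin, and its share of the tissue varied widely between mice. In C57BL/6J mice at 9 h the summed level of 5 choroid plexus markers had a median of 26.2 TPM in CHI mice (4.79 to 2505) and 139.3 in sham mice (16.7 to 5982), with 0 of the 5 called. Over the 4 strains at 9 h 4 of the 5 were called lower, with a list median of -1.35 in log2 fold change, where 12.5% of all genes were called lower and Cp was 0.16 ± 0.09 (adjusted p = 0.179). Their part in the Cp values was not tested.

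**Figure D3:**
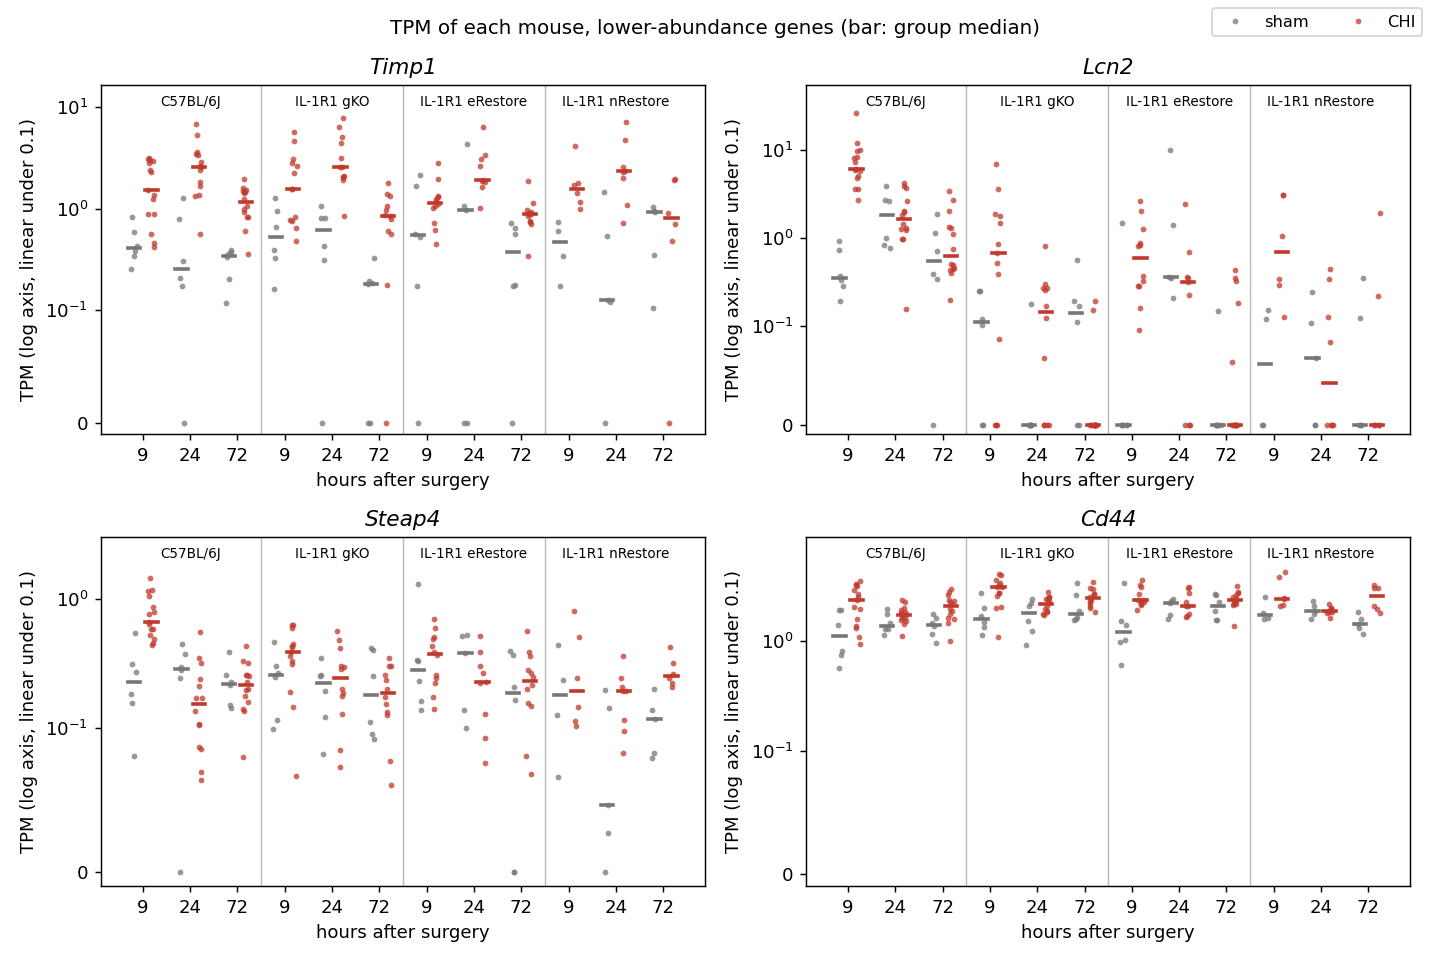
TPM of Timp1, Lcn2, Steap4 and Cd44 in each mouse (points) by strain, surgery and time in h, on an axis that is linear near 0 and logarithmic above, with a bar at each group's median. Lcn2 in C57BL/6J CHI mice at 9 h stands apart (2.72 to 25.7 TPM), and the later CHI groups lie among the sham mice.

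Osmr was the membrane gene with the clearest early rise. At 9 h C57BL/6J sham mice held 1.17 to 3.66 TPM (median 1.40) and CHI mice 2.401 to 5.02 (median 3.73). A single sham mouse, A194, at 3.66 TPM, overlapped the CHI mice, and the next sham mouse held 1.74. This was a log2 fold change of 1.28 ± 0.16 (SE, adjusted p = 7.37e-06). At 24 h the groups overlapped, 1.33 to 2.99 TPM in CHI mice and 1.67 to 2.59 in sham mice, with a log2 fold change of -0.10 ± 0.12 (adjusted p = 0.866). At 72 h CHI mice held 1.24 to 2.60 (median 2.03) and sham mice 1.29 to 2.19 (median 1.37), with a value of 0.24 ± 0.13 (adjusted p = 0.908).

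Osmr was also the member called at 9 h in most strains. It was called higher in eRestore mice (0.76 ± 0.19, SE, adjusted p = 0.0208) and in nRestore mice (1.43 ± 0.22, adjusted p = 0.00717), and in gKO mice the value was 0.84 ± 0.19 (adjusted p = 0.0674). In nRestore mice the 4 sham mice held 0.831, 1.12, 1.13 and 1.24 TPM and the 6 CHI mice 2.18 to 4.54, with no overlap. In gKO mice 10 of 13 CHI mice, and in eRestore mice 6 of 12, were above every sham mouse. The nRestore call was kept under all 12 alternatives, the eRestore call under 12 of 15, and the gKO value passed the threshold under 5.

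Cd44 was more variable between mice. At 9 h C57BL/6J sham mice held 0.569 to 1.92 TPM (median 1.11) and CHI mice 0.937 to 3.47 (median 2.35), with a log2 fold change of 0.62 ± 0.28 (SE, adjusted p = 0.149). In eRestore mice at 9 h it was called higher (0.87 ± 0.25, adjusted p = 0.044). There 5 of the 6 sham mice held 0.601 to 1.52 TPM, the sixth 3.34, and CHI mice 1.89 to 3.59. The eRestore call was kept under 6 of 15 alternatives. In gKO and nRestore mice the values at 9 h were 0.75 ± 0.26 (adjusted p = 0.263) and 0.65 ± 0.24 (adjusted p = 0.256), so that the 4 estimates ran from 0.62 to 0.87.

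Steap4 was a low transcript that differed at 9 h in C57BL/6J mice. Sham mice held 0.0804 to 0.544 TPM (median 0.226) and CHI mice 0.441 to 1.43 (median 0.654), and 11 of 15 CHI mice were above every sham mouse. Steap4 thus had a log2 fold change of 1.63 ± 0.31 (SE, adjusted p = 0.000872). At 24 h it was -0.33 ± 0.41 (adjusted p = 0.886), with CHI mice at 0.0638 to 0.556 TPM and sham mice at 0 to 0.448. At 9 h the values in gKO, eRestore and nRestore mice were 0.56 ± 0.39, -0.01 ± 0.43 and 1.60 ± 0.68 (adjusted p = 0.669, 0.992 and 0.325). Sham mouse A175 of the eRestore strain, at 1.305 TPM, lay far above the other 5, which reached 0.337. Without it the eRestore value was 0.65.

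S1pr3 did not pass the threshold in any strain at any time. In C57BL/6J mice at 9 h sham mice held 3.30 to 4.68 TPM and CHI mice 3.03 to 5.21, with medians of 3.75 and 3.66, and the log2 fold change was 0.00 ± 0.09 (SE, adjusted p = 0.989). Over the 12 comparisons its log2 fold change ran from -0.13 to 0.40, and the larger values were those of nRestore mice at 72 h (0.40 ± 0.16, adjusted p = 0.785) and at 9 h (0.34 ± 0.20, adjusted p = 0.5).

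Counted over the other strains, the members called at 9 h were fewer. In gKO mice 0 of 10 were called, against 0.0723% of all genes. In eRestore mice 3 of 9 tested were called higher, Gfap (0.39 ± 0.10, SE, adjusted p = 0.0264), Cd44 and Osmr, against 4.1% of all genes. In nRestore mice 1 of 9 was called, Osmr, against 0.345% of all genes. At 24 h 0 of 9, 0 of 9 and 0 of 8 members were called in gKO, eRestore and nRestore mice, where 0.0059%, 0% and 0% of all genes were. At 72 h 0 of 7 were called in each, where 0%, 0.00605% and 0.00606% of all genes were. An unadjusted p under 0.05 was reached by 1502, 1494 and 740 genes at 24 h and by 376, 943 and 930 at 72 h in gKO, eRestore and nRestore mice. Without Timp1, Lcn2 and Steap4, the log2 fold change at 9 h was above 0 for 7 of 7 members in gKO and in nRestore mice and for 6 of 7 in eRestore mice.

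A difference between strains was tested directly, as the difference of the CHI effect from that in C57BL/6J mice. None of the 10 members passed the threshold in any of the 9 tests. At 9 h the share of all genes that differed in either direction was 0% for gKO, 0.0107% for eRestore and 0.00534% for nRestore mice. At 24 h it was 0.00541%, 0.0108% and 0%, and at 72 h 0%, 0% and 0.00543%, in the same order. Where that share was 0%, an unadjusted p under 0.05 was reached by 1199 genes for gKO at 9 h, 754 for nRestore at 24 h, and 529 and 793 for gKO and eRestore at 72 h. Relative to the error, members were furthest from C57BL/6J in eRestore mice at 9 h, where the difference in log2 fold change was -1.03 ± 0.33 for Serpina3n (SE, adjusted p = 0.248), -1.74 ± 0.56 for Steap4 (adjusted p = 0.25, resting on sham mouse A175), -0.63 ± 0.22 for Cp (adjusted p = 0.313), -0.50 ± 0.18 for Vim (adjusted p = 0.341) and -0.68 ± 0.26 for Gfap (adjusted p = 0.4). The eRestore Cp value at 9 h, -0.12, ran from -0.25 to 0.03 with each sham mouse left out (0.03 without A188). Sham mice A175 and A188 held summed choroid plexus markers of 6232 and 877 TPM, and the eRestore CHI mice at most 374. The part of choroid plexus in these differences was not tested. For Osmr the differences were -0.45 ± 0.25 in gKO, -0.52 ± 0.25 in eRestore and 0.08 ± 0.29 in nRestore mice (adjusted p = 0.811, 0.545 and 0.997). The absence of a call in gKO mice is therefore not a shown difference from C57BL/6J mice.

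**Figure D4:**
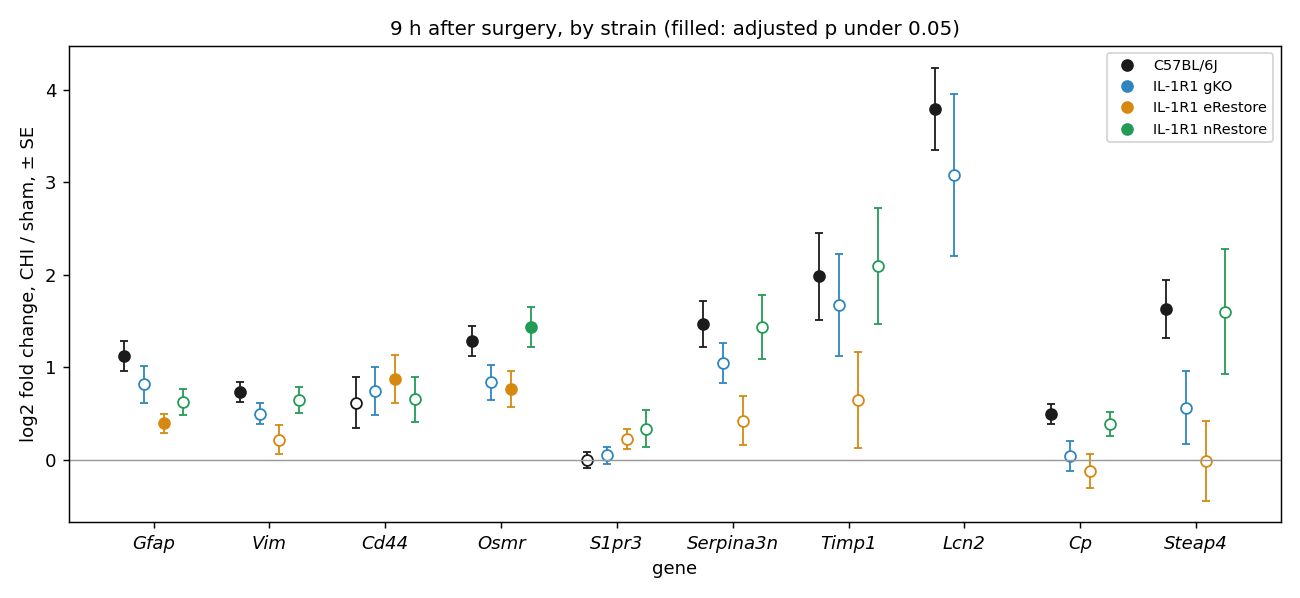
Log2 fold change of CHI against sham at 9 h for each of the 10 genes (x axis) in each strain (colours), with bars of 1 SE. The eRestore points are the lowest of the 4 strains for Serpina3n (0.42), Steap4 (-0.01), Cp (-0.12), Vim (0.22), Gfap (0.39), Timp1 (0.65) and Osmr (0.76). They are not the lowest for Cd44 (0.87) and S1pr3 (0.23). Without sham mouse A175 the eRestore value of Steap4 was 0.65, above that of gKO mice (0.56).

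A joint fit of the 4 strains, which allowed for strain, age and sex, gave the time course with the smallest errors. At 9 h 8 of 10 members were called higher, all but Cp and S1pr3, against 12.6% of all 20111 genes, or 5 of 7 without Timp1, Lcn2 and Steap4. At 24 h 4 of 10 were called higher, Gfap, Vim, Serpina3n and Timp1, or 3 of 7 without those low genes, against 0.244% of all genes. At 72 h 5 of 10 were called higher, the same 4 and Cd44, or 4 of 7 without Timp1, Lcn2 and Steap4, against 0.562%. These fits share mice with the single-strain comparisons above and are no separate evidence for them. They held no term for experiment. The 24 h values include the gKO, eRestore and nRestore CHI mice from the experiment without sham mice of those strains. In the joint 24 h values, too, CHI cannot be fully told apart from experiment.

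For Gfap the joint log2 fold change at 9, 24 and 72 h was 0.76 ± 0.10, 0.53 ± 0.10 and 0.67 ± 0.10 (SE, adjusted p = 1.36e-10, 0.000919 and 2.06e-07). Vim was 0.53 ± 0.07, 0.40 ± 0.07 and 0.37 ± 0.07 at the same times (adjusted p = 6.71e-11, 0.000228 and 6.27e-05). Timp1 was 1.60 ± 0.28, 1.90 ± 0.29 and 1.56 ± 0.33 (adjusted p = 1.62e-06, 3.51e-06 and 0.00127). These 3 genes were called higher at each of the 3 times. Serpina3n was 1.1 ± 0.11, 0.63 ± 0.11 and 0.50 ± 0.11 (adjusted p = 8.29e-17, 0.00015 and 0.00139). Osmr was 1.06 ± 0.09 at 9 h (adjusted p = 1.67e-21) and 0.03 ± 0.09 and 0.21 ± 0.09 later (adjusted p = 0.981 and 0.621). Cd44 was 0.71 ± 0.11, 0.14 ± 0.11 and 0.40 ± 0.10 (adjusted p = 1.09e-08, 0.833 and 0.0343). Serpina3n was thus called at every time with its largest value at 9 h, Osmr was called at 9 h and did not pass the test later, and Cd44 was called at the first and the last time. Lcn2 was 3.28 ± 0.44 and Steap4 0.69 ± 0.22 at 9 h (adjusted p = 2.21e-10 and 0.0104), and neither was called later. The Lcn2 value at 72 h was 0.58 ± 0.76 (adjusted p = 0.965), and -0.04 ± 0.41 without the 2 mice whose sex markers went against the label. The counts of members called were the same without those 2 mice and without the mouse with the highest neutrophil markers. In gKO mice at 9 h, without the latter, Gfap was 0.80 ± 0.21, Serpina3n 1.04 ± 0.22, Osmr 0.83 ± 0.19 and Cd44 0.74 ± 0.27. In nRestore mice at 72 h, without the mouse whose sex markers went against the label, Gfap was 0.60 ± 0.13, Vim 0.42 ± 0.10 and S1pr3 0.43 ± 0.17. In eRestore mice at 24 h, without the other such mouse, Gfap was 0.24 ± 0.31 instead of 0.06 ± 0.31. None of these values was called with or without the mouse.

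**Figure D5:**
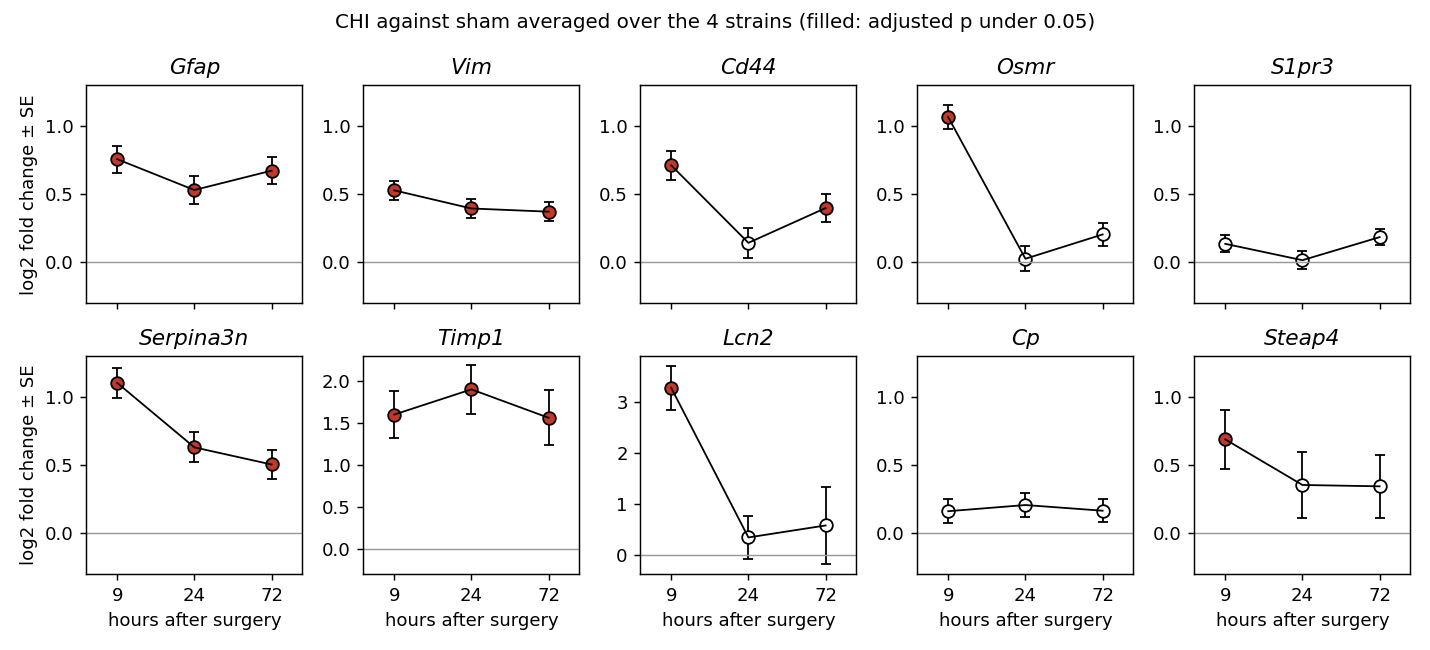
Log2 fold change of CHI against sham over the 4 strains for each of the 10 genes (y axis) at 9, 24 and 72 h (x axis), with bars of 1 SE. Gfap, Vim and Timp1 lie above 0 at each time, Serpina3n lies lower at 24 and 72 h than at 9 h, and so do Osmr and Lcn2.

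Whether an effect was larger early was tested as the change of the CHI effect between times, here and over the 4 strains. The 9 h mice came from other experiments than the later mice. In each contrast with 9 h, time and experiment therefore cannot be told apart. In C57BL/6J mice the effect at 9 h was called larger than at 24 h for 3 of 10 members, Lcn2 (3.77 ± 0.69, SE, adjusted p = 0.000187), Osmr (1.37 ± 0.20, adjusted p = 1.98e-06) and Steap4 (2.09 ± 0.50, adjusted p = 0.00572), against 2.7% of all genes. It was called larger at 9 than at 72 h for 2 of 10, Lcn2 (3.12 ± 0.77, adjusted p = 0.0065) and Osmr (1.06 ± 0.20, adjusted p = 0.000195), against 3.56% of all genes. Between 24 and 72 h 0 of 10 were called, against 0.011%. Steap4 (1.54 ± 0.51, adjusted p = 0.0512) and Serpina3n (0.86 ± 0.30, adjusted p = 0.07) missed the threshold for 9 against 72 h. Without Timp1, Lcn2 and Steap4, 1 of 7 members, Osmr, was called larger at 9 h in each of the 2 contrasts with 9 h. These 2 contrasts share the 9 h mice.

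Over the 4 strains the effect was larger at 9 than at 24 h for Osmr (1.04 ± 0.13, SE, adjusted p = 4.66e-11), Cd44 (0.57 ± 0.15, adjusted p = 0.00493) and Serpina3n (0.47 ± 0.15, adjusted p = 0.0272), against 4.79% of all genes. It was larger at 9 than at 72 h for Osmr (0.86 ± 0.12, adjusted p = 1.8e-08) and Serpina3n (0.60 ± 0.15, adjusted p = 0.00215), against 5.81%. No member was called between 24 and 72 h, where 0% of all genes were called higher and 874 genes had an unadjusted p under 0.05. For Gfap the change from 9 to 72 h was 0.08 ± 0.13 (9 minus 72 h, adjusted p = 0.777), and for Vim 0.16 ± 0.09 (adjusted p = 0.318). No member was called larger at 24 or 72 h than at 9 h in either fit. Taking the largest of the 3 log2 fold changes in each strain, Osmr, Vim and Cd44 were largest at 9 h in 4 of 4 strains, Gfap and Serpina3n in 3 of 4 and Cp in 1 of 4, while S1pr3 was largest at 72 h in 3 of 4. Some of these rest on near ties. Vim in eRestore mice was 0.2173 at 9 h and 0.2155 at 72 h, and Cd44 in nRestore mice 0.65 and 0.61. Serpina3n in eRestore mice was 0.420 at 9 h and 0.425 at 24 h. The same count was not taken over all genes.

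Because each time point pooled mice from several experiments, the difference was also taken within each experiment, as the mean log2 CPM (counts scaled to library size) of CHI mice minus that of sham mice of the same strain, time and experiment. For Gfap it was above 0 in 8 of 8 such pairs of groups at 9 h (0.31 to 1.40), in 7 of 7 at 24 h (0.09 to 1.04) and in 11 of 11 at 72 h (0.30 to 1.76). For Vim it was above 0 in all of these too, from 0.10 to 0.79 at 9 h and from 0.01 to 1.02 at 72 h. For Osmr it was above 0 in 8 of 8 at 9 h (0.41 to 1.58) and in 4 of 7 at 24 h (-0.36 to 0.30). Serpina3n was above 0 in 8 of 8, 7 of 7 and 10 of 11, Timp1 in 8 of 8, 7 of 7 and 10 of 11, and Cd44 in 8 of 8, 5 of 7 and 11 of 11 at the 3 times. Lcn2 was above 0 in 8 of 8 at 9 h and in 3 of 7 at 24 h. Some of the later pairs held 1 sham mouse. The largest Gfap value at 72 h (1.76) came from 1 CHI and 1 sham mouse, and that at 24 h (1.04) from 5 CHI mice and 1 sham mouse. The same signs were not counted over all genes.

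No difference between the sexes was detected. The nRestore mice, with few males at 9 and 24 h and no females at 72 h, were left out of this test. The difference of the CHI effect between female and male mice passed the threshold for 0 members at 9, 24 and 72 h, as for all genes (0%, 0% and 0%). For Gfap it was 0.13 ± 0.23, 0.16 ± 0.24 and -0.13 ± 0.18 at the same times (female minus male, log2, SE, adjusted p = 1, 1 and 0.794). For Osmr at 9 h, the member with the largest such difference relative to its error at that time, it was 0.46 ± 0.20 (adjusted p = 1). At an unadjusted p under 0.05 the genes numbered 423, 644 and 1527 at the 3 times.

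Other genes of the reactive astrocyte programme were taken from 4 fixed lists, to be read against the 7.05% of all genes called higher in C57BL/6J mice at 9 h. Of 3 further genes shared by most reactive astrocytes, 2 were called higher in C57BL/6J mice at 9 h, the chemokine gene Cxcl10 (1.83 ± 0.52, SE, adjusted p = 0.0186) and Aspg (1.51 ± 0.35, adjusted p = 0.0048), an asparaginase. Of 11 genes of the A1 type, described after inflammatory stimulation, 5 were called higher, led by Fkbp5 (1.99 ± 0.15, adjusted p = 5.8e-08), a co-chaperone that glucocorticoids also induce, Ggta1 (0.71 ± 0.15, adjusted p = 0.00165) and Amigo2 (0.58 ± 0.15, adjusted p = 0.00935). Of 12 genes of the A2 type, described after ischaemia, 7 were called higher, a count that includes Tgm1 and Slc10a6, which reached the count filter through CHI mice. They were led by Tgm1, a transglutaminase, which was at 0 in all 6 sham mice and at 0 to 52 estimated counts in CHI mice (adjusted p = 0.000404), Slc10a6, at 0 to 1 counts in sham and 1 to 38 in CHI mice (adjusted p = 0.00181), and Ptx3, pentraxin-3 (2.07 ± 0.50, adjusted p = 0.00587). Of 15 genes of the gp130 and STAT3 pathway, which carries the Osmr signal, 13 were tested and 1 was called, Stat3 itself (0.39 ± 0.08, adjusted p = 0.00193). The medians of the lists were 1.51, 0.48, 1.12 and 0.21 in log2 fold change, with 0 called lower. The A2-type median also includes Tgm1 and Slc10a6, whose direction was set by the filter, so it is not counted as support. A median without them was not taken. At 24 and 72 h 9 of the 12 A2-type genes were tested in C57BL/6J mice. At 24 and 72 h 0 genes of the 4 lists were called in C57BL/6J mice, where 0.229% and 0% of all genes were called higher. In the joint fit of the 4 strains at 72 h 2 of the 11 A1-type and 1 of the 12 A2-type genes were called higher, against 0.562% of all genes. None of the other lists was. In eRestore mice at 9 h Fkbp5 (0.94 ± 0.21, adjusted p = 0.0173), Aspg (1.06 ± 0.25, adjusted p = 0.0158) and Jak1 (0.19 ± 0.06, adjusted p = 0.0499), a kinase of that pathway, were called, and none in gKO or nRestore mice at any time.

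The genes whose CHI effects over the 12 comparisons lay nearest to those of a member were looked up among 15713 genes tested in all 12, by the root mean square difference of the log2 fold changes. Nearest to Gfap were Tlr2 (0.211), Capg (0.258), Anxa1 (0.274), Slc15a3 (0.281) and C3ar1 (0.309). Nearest to Osmr were Maff (0.200), Angpt2 (0.211), Aspg (0.237), Cmtm3 (0.238) and Scarf2 (0.243). Lcn2 was tested in 3 of the 12 comparisons and was not matched.

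Markers of cell types were followed beside these genes, against 7.05% of all genes called higher and 7% called lower in C57BL/6J mice at 9 h. At 9 h in C57BL/6J mice 3 of 11 astrocyte markers were called higher, Gjb6 (0.69 ± 0.07, SE, adjusted p = 3.27e-07), Aldh1l1 (0.38 ± 0.07, adjusted p = 0.000515) and Glul (0.17 ± 0.06, adjusted p = 0.0484), and the summed level of the list ran from 3679 to 4439 TPM in CHI and from 3596 to 4308 in sham mice. Of 6 microglia markers 3 were called lower, P2ry12 (-1.05 ± 0.14, adjusted p = 2.03e-05) the most, and 0 higher. Of 4 endothelial markers 1 was called higher, Pecam1 (0.39 ± 0.10), and 1 lower, Flt1 (-0.28 ± 0.08), and of 6 mural cell and fibroblast markers 1 was called higher, Pdgfrb (0.28 ± 0.09). At 72 h in C57BL/6J mice, when Gfap was apart in every mouse, 0 of 11 astrocyte markers were called. Since 0% of all genes were called there, Gfap among the uncalled, no marker list could hold a call. The summed level of the astrocyte markers ran from 3645 to 4556 TPM in CHI and from 3721 to 4259 in sham mice. The summed level of the 6 microglia markers there had a median of 292.9 TPM in CHI mice (246.2 to 372.8) and 226.2 in sham mice (219.1 to 262.9), with 0 of 6 called. Over the 4 strains at 72 h 2 of 6 microglia markers and 1 of 6 mural cell and fibroblast markers were called higher, against 0.562% of all genes. Red blood cell markers, 4 haemoglobin genes, had a median summed level of 166.4 TPM in the 46 CHI mice and 24.6 in the 22 sham mice at 9 h over the 4 strains. By strain the CHI and sham medians were 14.8 and 17.6 in C57BL/6J, 261.3 and 27.9 in gKO, 29.7 and 21.1 in eRestore, and 344 and 301.7 in nRestore mice. The part of other cell types in the values of the 10 genes was not tested.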

How the data were processed

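Polyadenylated RNA from a hemisphere of each PBS-perfused mouse was sequenced on a NovaSeq X Plus. Per the methods and labels, the authors ran the nf-core/rnaseq workflow, aligned reads to GRCm39 with STAR and quantified genes with Salmon. The versions of STAR and Salmon, the annotation release and strandedness are not given in the sources used here. They deposited estimated counts per gene, of which 10.8% were not whole, and TPM, both used here. Of 56941 gene IDs 98.9% matched GENCODE vM39, which gave positions and promoters.

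Groups came from the labels. Estimated counts were rounded and tested with edgeR 4.0.16 (R 4.3.3) by its quasi-likelihood test, with TMM factors (0.886 to 1.079), a minimum of 10 counts in a number of mice equal to the smallest group, and sex and age as covariates (age alone for nRestore mice at 72 h). P-values were adjusted by Benjamini–Hochberg over all genes tested and called at 0.05. TPM served for levels. Within-experiment values used log2 CPM with a prior count of 2. Each label is a separate mouse. Alternatives were DESeq2 1.42.0, RLE factors, 2 other count filters, other covariates, a single fit of all mice and each sham mouse left out. Leaving out 3 doubtful mice and counting non-overlapping groups were chosen after seeing the data. The tests were checked on simulated counts.

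The 10 members, 4 other astrocyte gene lists and 11 marker lists were chosen with earlier results of these data known. All 10 members are named. From each other astrocyte list up to 3 called genes with the largest change in C57BL/6J mice at 9 h are named, with called genes of other strains, and 5 genes nearest to Gfap and Osmr. Where transcripts of genes on opposite strands share bases, which was not examined, their reads may not be told apart by these counts. Low estimated counts, as of Lcn2, Timp1 and Steap4, limit precision.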

Additional observations from a re-analysis of the deposited data

Results flagged for a closer look

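In 16 groups of 4 to 10 mice, the highest or lowest mouse was compared with its nearest neighbour for each of the 10 genes by Dixon's test. Of 160 such tests 20 picked out a mouse, from 18 mice. For values of normal spread chance alone picks out about 1 in 20 groups, and that rate does not hold for values at or near 0. Lcn2 held 7 of the 20. Where all other mice of a group were at 0, any mouse above 0 is picked out, and the Lcn2 mice at 0.151 and 0.181 TPM held 1 rounded count each. In eRestore mice the Lcn2 mice that stood apart were a sham mouse at 9 h (1.48 TPM, next 0), a sham mouse at 24 h (10 TPM, next 1.41), a CHI mouse at 24 h (2.46 TPM, next 0.692) and a sham mouse at 72 h (0.151 TPM, next 0). In gKO mice they were a sham mouse at 24 h (0.181 TPM, next 0) and one at 72 h (0.559 TPM, next 0.195), and in nRestore mice a CHI mouse at 72 h (1.9 TPM, next 0.22), which is one of the 2 whose sex markers went against the label. Timp1 stood apart in an eRestore CHI mouse at 24 h (6.35 TPM, next 3.34), in the eRestore sham mouse at 24 h whose sex markers went against the label (4.3 TPM, next 1.06) and in an nRestore CHI mouse at 9 h (4.15 TPM, next 1.78).

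Among the better expressed genes, Gfap was low in a gKO sham mouse at 9 h (57.1 TPM, next 110) and in an nRestore CHI mouse at 24 h (126.8 TPM, next 192.9). Vim was high in an nRestore sham mouse at 24 h (43.6 TPM, next 25.2), and Cp in an eRestore sham mouse at 72 h (14 TPM, next 7.93). Osmr was high in a C57BL/6J sham mouse at 9 h (3.66 TPM, next 1.74), in a gKO sham mouse at 9 h (2.35 TPM, next 1.58) and in a gKO sham mouse at 72 h (2.93 TPM, next 1.85). In eRestore sham mice at 9 h a mouse was high for Steap4 (1.3 TPM, next 0.337) and another for Cd44 (3.34 TPM, next 1.52). S1pr3 was low in an eRestore sham mouse at 72 h (2.13 TPM, next 4.2). Of the 20 mouse and gene pairs, 15 were in sham groups. Every sham group but few CHI groups were small enough to be tested, so this count does not show that sham mice stand apart more often. Sham groups hold few mice, so each such mouse bears on the comparison of its strain and time.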

How the results depend on the processing

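Of 2486 comparisons of a single gene value with an alternative, 55 changed direction and 0 of these involved a called value. In C57BL/6J mice at 9 h the 8 called members kept their calls in each alternative that tested them, as did all calls over the 4 strains and all called time changes. The counts of members called that moved by over 1.5 times were these. With at least 10 counts required in every mouse, which leaves fewer members tested, they were 5 for C57BL/6J at 9 h, 1 for gKO at 9 h, 1 for gKO at 24 h, 2 for nRestore at 9 h, 1 for each C57BL/6J change from 9 h and 5 over the 4 strains at 9 h. With DESeq2 they were 2 for C57BL/6J at 72 h, 4 and 2 for gKO at 9 and 24 h, 4 and 1 for nRestore at 9 and 72 h, and 4 for the C57BL/6J change from 9 to 72 h. With gene-length offsets they were 1 for C57BL/6J at 72 h, 3 and 1 for gKO at 9 and 24 h, and 4 and 1 for nRestore at 9 and 72 h. With at least 1 count in total they were 1 for C57BL/6J at 72 h, 1 for gKO at 24 h and 6 for nRestore at 9 h. Without covariates they were 1 and 1 for gKO at 9 and 24 h, 1 for eRestore and 3 for nRestore at 9 h. With experiment in place of age they were 2 for C57BL/6J at 72 h, 2 for gKO and 2 for nRestore at 9 h. In a single fit of all mice they were 2 for C57BL/6J at 72 h, 7 and 1 for gKO at 9 and 24 h and 3 for nRestore at 9 h. In the largest experiment alone they were 0 for eRestore at 9 h and 1 for gKO at 72 h. The cause was not tested. Smaller moves included Gfap with DESeq2 and with at least 1 count in total for C57BL/6J at 24 h (4 each), Cd44 with length offsets and in the single fit for C57BL/6J at 9 h (9 each), and Lcn2 with DESeq2 for the changes over the 4 strains from 9 to 24 h (4) and from 9 to 72 h (3), and the count for C57BL/6J at 24 h fell to 2 with at least 10 counts in every mouse, in the largest experiment and in the single fit. With each sham mouse left out in turn, the count ran from 8 to 9 for C57BL/6J at 9 h, from 0 to 3 at 24 h (0 without A005 or A054, 1 without A055, A031 or A123) and was 0 at 72 h. It ran from 0 to 2 for gKO (2 without A196), from 0 to 3 for eRestore (0 without A098, 1 without A097 or A089) and from 1 to 3 for nRestore at 9 h (3 without A161, 2 without A154), and was 0 in these strains later.

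Of uncalled log2 values that changed direction, Lcn2 in C57BL/6J at 24 h (0.09) became -0.01 with length offsets and -0.06 in the largest experiment, and Osmr in gKO at 24 h (-0.11) became 0.09 with length offsets, 0.04 without covariates, 0.1 in the largest experiment and 0.02 in the single fit. In gKO Cp became -0.15 with experiment as covariate at 24 h (0.1) and -0.18 in the largest experiment at 72 h (0.05), and Osmr at 72 h (0.08) -0.01 without covariates and -0.02 in the single fit. In eRestore at 9 h Steap4 (-0.01) became 0.02 with DESeq2, 0.03 with length offsets and 0.01 with at least 1 count, Cp (-0.12) 0.11 with length offsets and Serpina3n (0.42) -0.11 in the largest experiment. In eRestore at 24 h length offsets gave -0.14 for Cp (0.06) and -0.18 for Vim (0.09), and Steap4 (-0.01) became 0.14 with experiment, 0.13 in the largest experiment and 0.06 without the sex-mismatched mice. Cp in eRestore at 72 h (-0.03) became 0.01 without covariates, 0.02 with experiment and 0.01 in the single fit. In nRestore at 24 h length offsets gave 0.01 for Cd44 (-0.08) and -0.05 for Osmr (0.02). Without age, Steap4 from 24 to 72 h over the 4 strains (0.01) became -0.2, and the differences from C57BL/6J at 24 h became 0.18 for Timp1 (-0.22) and 0.02 for Vim (-0.05) in gKO and 0.02 for Timp1 in nRestore (-0.43). With DESeq2 the sex difference of Lcn2 at 9 h (0.1) became -0.12. Without the sex-mismatched mice Lcn2 over the 4 strains became -0.04 at 72 h (0.58) and 0.36 from 24 to 72 h (-0.24). With each sham mouse left out, values that crossed 0 ran as follows: Lcn2 in C57BL/6J at 24 h from -0.19 to 0.35. In gKO Cp ran from -0.11 to 0.16, from -0.02 to 0.26 and from -0.04 to 0.18 at the 3 times, and Osmr from -0.23 to 0.04 at 24 h and from -0.03 to 0.18 at 72 h. In eRestore Cp ran from -0.25 to 0.03 and Steap4 from -0.19 to 0.65 at 9 h. At 24 h Steap4 ran from -0.28 to 0.24, Gfap from -0.04 to 0.24, Osmr from -0.05 to 0.29 and Vim from -0.02 to 0.17, and at 72 h Cp from -0.1 to 0.15, Cd44 from -0.01 to 0.14 and Osmr from -0.01 to 0.18. In nRestore Osmr ran from -0.08 to 0.19 at 24 h.

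The labels give each mouse its own library number, so single mice could not be paired. Matching was by experiment, in the within-experiment values and in the fit with experiment in place of age. Depth was ample for Gfap, and the few counts of Lcn2, Timp1 and Steap4 in sham mice limited their precision. Experiments and ages differed between times, and the nRestore groups held as few as 4 sham mice.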

Other observations

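Il1r1, the receptor gene after which the strains are named, was itself higher after CHI in C57BL/6J mice at 9 h, with a log2 fold change of 1.02 ± 0.19 (SE, adjusted p = 0.000663 by edgeR's quasi-likelihood test with Benjamini–Hochberg adjustment, CHI n = 15, sham n = 6). Of all genes tested there 7.05% were called higher. At 9 h it was 0.34 ± 0.14 in gKO, -0.02 ± 0.22 in eRestore and 0.46 ± 0.14 in nRestore mice (adjusted p = 0.355, 0.967 and 0.16). In C57BL/6J mice it was -0.27 ± 0.12 at 24 h and 0.09 ± 0.16 at 72 h (adjusted p = 0.506 and 0.94). Il1r1 was called in no other strain or time.

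Lcn2 in C57BL/6J sham mice had a median of 0.352 TPM at 9 h, 1.81 TPM at 24 h and 0.548 TPM at 72 h. The 9 h mice came from other experiments than the later mice, so for 9 h against later times, time and experiment cannot be told apart.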
